A study of Mus musculus with 6 samples.

Results

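The genes described here are 38 imprinted genes of the mouse, a named list chosen with earlier results of these data known. Of the 38 genes, 33 had at least 1 probe set annotated to that gene alone. On the array 18193 genes were measured in the same way. RNA came from 2 blood-forming cell populations sorted by flow cytometry from wild-type C57BL/6 mice, with 3 arrays each. LSK cells were low in lineage markers and carried both Sca-1 and Kit, a gate that takes in stem cells along with multipotent progenitors. LK cells were low in lineage markers, carried Kit and lacked Sca-1, a gate that takes in committed progenitors. The labels name no allele and no treatment of the mice in either population, and give neither their age nor whether animals were pooled. Nothing in the labels ties each array to its own animal, and a p-value here therefore reflects just the spread among these samples, which may be technical.

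An imprinted gene is transcribed mainly from the copy inherited from 1 parent, because DNA methylation laid down in the egg or the sperm marks the copies differently. Imprinted genes lie in groups, called domains, each under an imprinting control region, and neighbours in a domain can be expressed from opposite parental copies. Many of them act in fetal growth, with paternally expressed genes such as Igf2 promoting it and maternally expressed ones such as Cdkn1c and Grb10 restraining it. In blood-forming tissue several are known for links to stem cell quiescence. An expression array measures the transcript from both copies together, so the allele named here for each gene is textbook knowledge of the mouse and was not measured. Imprinting of some members, such as Ube3a and Ppp1r9a, is confined to certain tissues.

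The sorts differed in the way their markers require. All 5 measured stem and multipotent progenitor markers (Mecom, Hlf, Procr, Flt3 and Hoxa9) were higher in LSK. Of the markers of committed cells, 4 of 5 erythroid and 4 of 5 granulocyte-monocyte ones were lower. Erythroid Epor and granulocyte-monocyte Csf1r did not pass (limma adjusted p = 0.0794 and 0.0793). Both were lower in LSK after blocking on replicate number (limma adjusted p = 0.0262 and 0.0215). The 4 measured B-cell markers were not detected in either population, and 9 of 10 stroma and endothelium markers were not detected either. Of 4 measured T and NK cell markers 3 were undetected. The other, Nkg7, was bright, with means of 9.59 in LSK and 10.53 in LK (limma adjusted p = 0.2). The 2 measured megakaryocyte markers were detected in both populations. Pf4 had means of 6.62 in LSK and 7.79 in LK (limma adjusted p = 0.0935, or 0.0433 after blocking on replicate number). Itga2b had means of 4.62 and 4.73 (limma adjusted p = 0.783). The 5 mature neutrophil markers were detected in both populations with a summed intensity of 12700 to 19000 in LSK and 9550 to 18200 in LK. None of the 5 passed the threshold, while with the replicate number as a block Ltf, Camp and Ngp were higher in LSK (limma adjusted p = 0.0154, 0.0378 and 0.0439), each in 3 of 3 pairs. The part of the neutrophil, megakaryocyte and T and NK cell markers in the results on imprinted genes was not tested. The arrays numbered 2 stood apart in both populations, at -31.7 and -41.2 on the second principal component against 7.2 to 29.8 for the others. RNA integrity and amplification were read together from the Actb and Gapdh control probe sets, whose 3' ends exceeded their 5' ends by a mean log2 difference of 2.32, 2.32 and 3.30 in LSK and 3.26, 3.94 and 3.40 in LK.

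Most imprinted genes gave signals no brighter than the background of the array. A gene was counted as detected in a population when its log2 intensity exceeded, on all 3 arrays, the 95th percentile of 73 olfactory, vomeronasal and taste receptor genes, which lay between 3.15 and 4.04 on the 6 arrays and is called the background limit below. Of the 33 genes 12 had 1 probe set (Magel2, Mkrn3, Peg12, Snrpn, Kcnq1, Cdkn1c, Phlda2, Zim1, Peg10, Mest, Nnat and Mcts2). Igf2, Slc22a18, Dlk1, Mirg, Usp29, Sgce, Asb4, Igf2r and Dcn had 2, and Ascl2, Grb10, Plagl1 and Impact had 3. Rian had 4, Peg3, Ppp1r9a and Gnas had 5, Ube3a and Kcnq1ot1 had 6, Ndn had 8 and Meg3 had 11. The brightest by mean stands for each gene. By the background limit 12 of the 33 genes were detected in at least 1 population (36.4%, against 42% of all genes on the array). Detected in LSK were 10 genes and in LK 11. Gnas, Grb10, Impact, Kcnq1ot1, Ube3a, Ppp1r9a, Peg12, Igf2r and Mest were detected in both, Ndn in LSK alone, and Rian and Plagl1 in LK alone. The other 21 genes had log2 intensities between 2.18 and 4.63. The background limit was higher on the arrays numbered 2 (4.04 in LSK and 3.98 in LK) than on the others (3.15 to 3.42). Rian missed detection in LSK only on replicate 2, at 3.95. Without LSK replicate 2, Rian, Cdkn1c, Sgce and Slc22a18 also counted as detected in LSK, which gave 14 genes. With the 99th percentile of the receptor genes in place of the 95th, Gnas, Grb10, Impact, Kcnq1ot1, Ppp1r9a and Ube3a were detected in both populations and Ndn in LSK. Igf2r, Mest, Peg12, Rian and Plagl1 are therefore near the background limit.

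**Figure D1:**
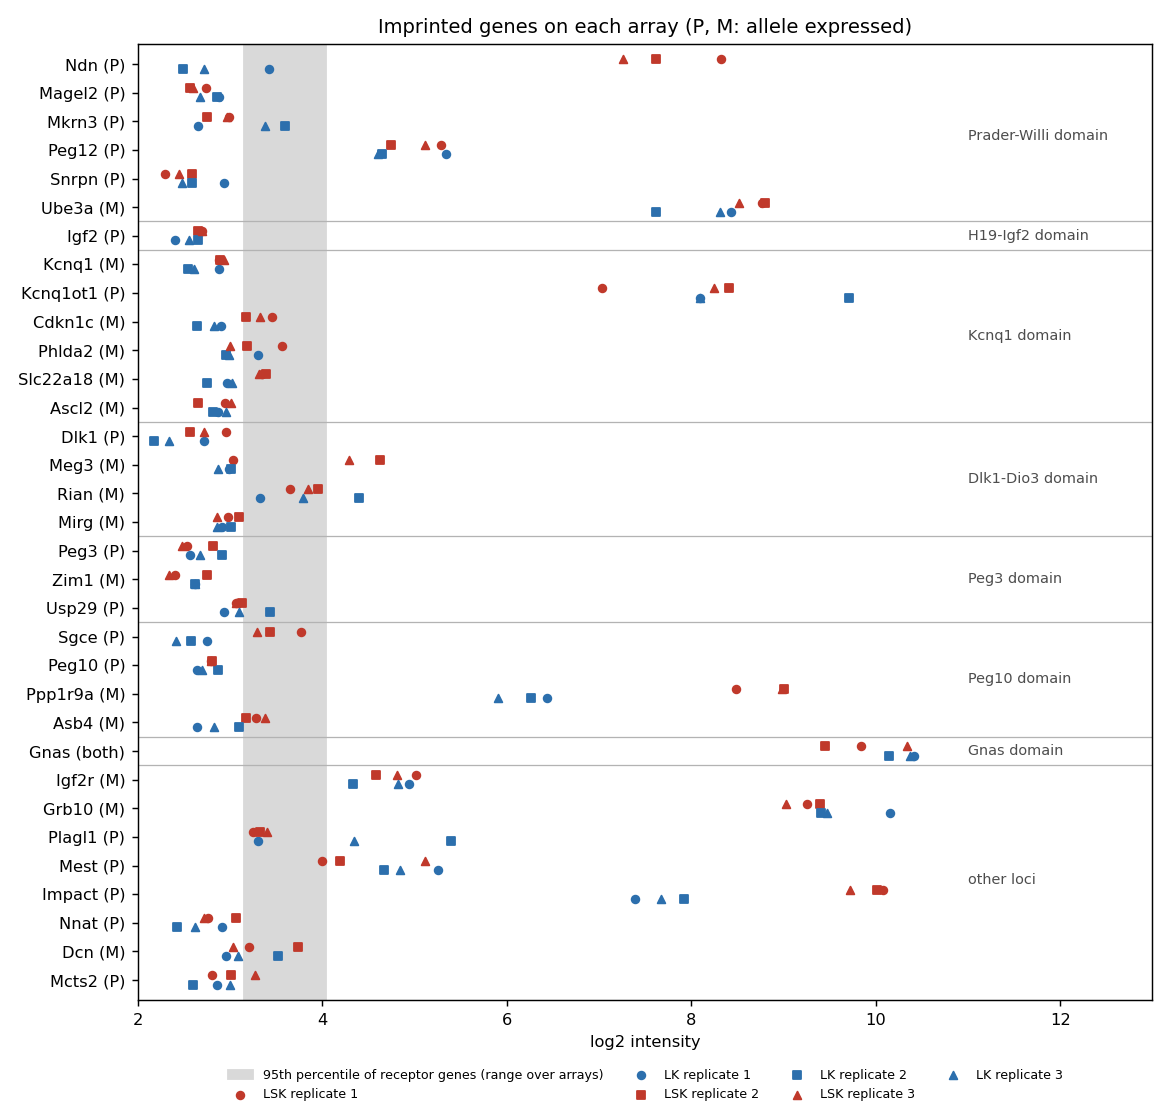
Log2 intensity of the 33 measured imprinted genes on each array, with LSK in red, LK in blue and a marker shape for each replicate number, grouped by imprinted domain. The grey band spans the background limit of the 6 arrays (3.15 to 4.04), and most genes lie in it or to its left, while Ndn, Ppp1r9a and Impact show separate groups.

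Between the populations, 4 of the 33 genes were higher in LSK (12.1%, against 3.84% of all 18193 genes) and 0 were lower (against 2.89%), by limma with Benjamini-Hochberg adjustment over all genes at 0.05. The 4 were Ndn, Ppp1r9a, Impact and Sgce, and 9 of the 33 had an unadjusted limma p under 0.05, all of them higher in LSK (27.3%, near the 22.4% of all genes with such a p in either direction). The median log2 difference (LSK minus LK) was 0.14 over the 33 genes and -0.02 over all genes. In 10 genes all LSK arrays lay above all LK arrays (13.2% of all genes did so), and in 1 gene, Grb10, all lay below (14.8% of all genes). Of the 10, 6 were not detected in either population: Kcnq1, Cdkn1c, Slc22a18, Meg3, Sgce and Asb4. RNA of many cells was measured, so a lower level could mean fewer cells with the transcript or less of it in each cell, and these cannot be told apart. When replicate number entered as a block, 5 genes were higher (7.02% of all genes were), the fifth being Cdkn1c (limma adjusted p = 0.0496).

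By the allele expressed, 17 paternally and 15 maternally expressed genes were measured, and Gnas, whose locus makes transcripts from either copy, was kept apart. Of the paternally expressed genes 3 were higher in LSK (Ndn, Impact and Sgce, or 17.6%), none was lower and 14 did not pass. Of the maternally expressed genes 1 was higher (Ppp1r9a, or 6.67%), none was lower and 14 did not pass. Of all genes on the array 3.84% were higher and 2.89% were lower. The median log2 difference was 0.06 in the paternal and 0.17 in the maternal class, and 6 and 5 genes were detected in at least 1 population. All LSK arrays lay above all LK arrays in 3 paternally and 7 maternally expressed genes (13.2% of all genes did so). Among the 3, Sgce was detected in neither population. Among the 7, Kcnq1, Cdkn1c, Slc22a18, Meg3 and Asb4 were detected in neither population. The difference between the classes was not tested.

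**Figure D2:**
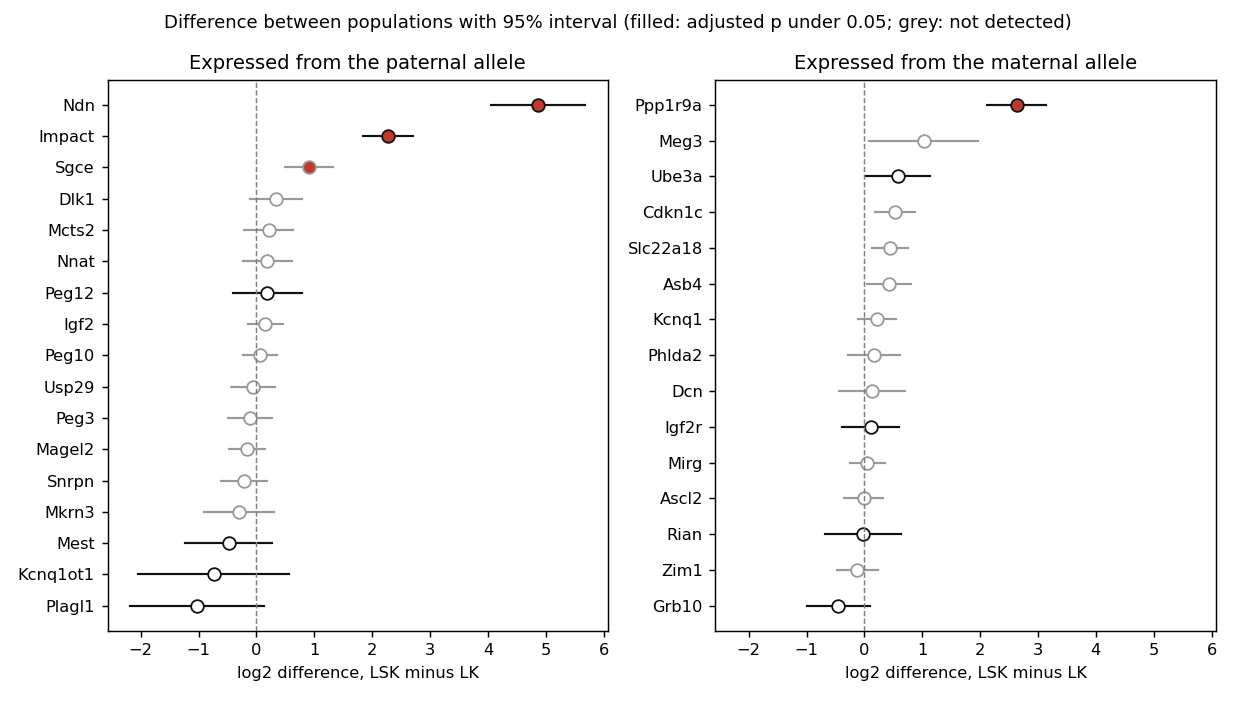
Log2 difference (LSK minus LK) of 17 paternally and 15 maternally expressed genes, with the 95% interval of the limma fit. Filled points passed an adjusted p of 0.05 and grey points mark genes detected in neither population. Ndn, Impact and Ppp1r9a lie apart from the other genes, most of whose intervals include 0.

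Promoter windows are shown for 4 genes. They are Ndn, which had the largest difference, its neighbour and relative Magel2, which was not detected, Ppp1r9a, which also passed, and Grb10, which was bright in both populations. Impact and Sgce passed as well, and no window of theirs is shown. The 4 genes were chosen after the values were seen. Each window runs from 250 bases before to 50 bases after a RefSeq transcript start (build GRCm38.p6, the first listed start of the gene), 5′ to 3′ on the gene's strand, with CG dinucleotides, the sites that DNA methylation can mark, in capitals.
Ndn, chr7:62348027-62348326, plus strand: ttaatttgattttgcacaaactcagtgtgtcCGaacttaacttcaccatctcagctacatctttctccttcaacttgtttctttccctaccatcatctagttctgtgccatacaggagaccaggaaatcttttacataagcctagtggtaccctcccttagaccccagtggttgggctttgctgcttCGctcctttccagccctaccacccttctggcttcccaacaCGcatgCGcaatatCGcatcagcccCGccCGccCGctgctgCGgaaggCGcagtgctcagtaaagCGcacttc
Magel2, chr7:62376729-62377028, plus strand: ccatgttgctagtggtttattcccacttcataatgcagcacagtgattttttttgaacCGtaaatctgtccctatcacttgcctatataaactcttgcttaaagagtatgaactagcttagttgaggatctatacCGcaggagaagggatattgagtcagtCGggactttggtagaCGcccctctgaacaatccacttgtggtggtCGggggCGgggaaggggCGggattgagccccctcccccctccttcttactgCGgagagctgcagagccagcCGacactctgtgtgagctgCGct
Ppp1r9a, chr6:4903061-4903360, plus strand: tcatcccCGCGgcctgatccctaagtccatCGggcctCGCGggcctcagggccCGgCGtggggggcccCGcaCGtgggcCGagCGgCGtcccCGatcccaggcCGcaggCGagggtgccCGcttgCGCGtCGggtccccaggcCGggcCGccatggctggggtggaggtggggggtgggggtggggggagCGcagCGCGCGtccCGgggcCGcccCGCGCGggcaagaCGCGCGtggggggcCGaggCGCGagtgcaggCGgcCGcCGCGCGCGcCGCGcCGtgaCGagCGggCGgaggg
Grb10, chr11:12037371-12037670, minus strand: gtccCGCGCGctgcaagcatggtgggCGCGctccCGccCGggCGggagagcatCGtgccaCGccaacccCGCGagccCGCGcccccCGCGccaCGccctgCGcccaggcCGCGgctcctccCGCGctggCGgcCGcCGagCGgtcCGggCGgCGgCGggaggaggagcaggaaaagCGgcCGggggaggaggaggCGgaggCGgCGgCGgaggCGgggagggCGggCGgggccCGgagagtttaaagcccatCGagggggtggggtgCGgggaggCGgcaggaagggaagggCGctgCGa
The windows of Ndn and Magel2 held 11 and 10 CG dinucleotides, and those of Ppp1r9a and Grb10 held 48 and 45, more than 98.8% and 98.1% of the windows of all genes. Over the 27 measured genes with a window the median was 13, against 7 over the windows of all 27025 genes. It was 26 for the 11 detected and 13 for the 16 undetected imprinted genes with a window. Over all genes of the array it was 22 for the detected and 10 for the undetected. The bases TGCCGC, the core of the sequence that the imprint-protecting factor Zfp57 binds when methylated, were searched on both strands. They occurred in 6 of the 27 windows (22.2%, against 11.6% of the windows of all genes, 20.8% of those of detected genes and 13% of those of undetected genes on the array), those of Grb10, Mcts2, Meg3, Nnat, Plagl1 and Zim1. A match describes the letters only.

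The Prader-Willi domain, named after the human syndrome caused by loss of its paternally expressed genes, held the largest difference among the 33 genes. Ndn encodes necdin, a MAGE family protein that restrains proliferation and is known in mouse stem cells for its part in quiescence. Its brightest probe set had log2 intensities of 8.32, 7.62 and 7.26 on LSK arrays 1 to 3 and of 3.42, 2.49 and 2.72 on LK arrays 1 to 3. The groups were far apart, and in LK only replicate 1 exceeded the background limit of its array. The means were 7.74 ± 0.54 (SD, n = 3) and 2.87 ± 0.48 (SD, n = 3). The log2 difference was 4.86 (SE 0.34, 95% interval 4.05 to 5.68), or 29.1-fold on a scale limited by the background in LK, with a limma adjusted p of 0.00158. The suffix of this probe set marks possible cross-hybridisation.

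Ndn had 8 probe sets, of which 4 passed as higher in LSK with adjustment over all 45037 probe sets (2.03% of which were higher), and the other 4 did not pass. The 4 had log2 differences of 4.86, 4.66, 3.35 and 2.55. One of them carries no cross-hybridisation suffix. It had log2 intensities of 7.09, 5.73 and 5.85 in LSK and of 3.48, 4.27 and 3.28 in LK. LSK replicate 1 was the highest array on each of the 4. The other 4 probe sets lay between 2.41 and 3.94 on every array, so the mean over all 8 gave a smaller log2 difference of 1.91. The call held in each fit without 1 array, with log2 differences from 4.57 to 5.13. Adjusted for the 3' to 5' difference, entered as a covariate, the log2 difference was 4.12 (limma adjusted p = 0.0475), and 25 genes of the array passed in that fit. The 3' to 5' difference was mostly smaller in LSK than in LK, so this fit cannot fully separate it from population.

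The neighbours of Ndn did not share this pattern. Magel2, a MAGE family regulator of protein sorting, lay between 2.57 and 2.88 on all 6 arrays. Mkrn3, a zinc finger protein that restrains the onset of puberty in humans, lay between 2.65 and 3.6. Peg12, a relative of the Frat regulators of Wnt signalling, was near the background limit, with means of 5.05 ± 0.28 and 4.86 ± 0.41 (95% interval of the difference -0.41 to 0.78). Snrpn, a spliceosome protein gene of the domain's control region, had 1 probe set of its own, at 2.30 to 2.93. The brightest of the probe sets that Snrpn shares with Snurf lay between 3.42 and 3.85 and did not pass the detection rule in either population.

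Ube3a, a ubiquitin ligase whose imprinting is limited to neurons, was well above background, and its probe sets disagreed. The brightest had log2 intensities of 8.77, 8.80 and 8.52 in LSK and 8.43, 7.62 and 8.31 in LK. All LSK arrays lay above all LK arrays, but the log2 difference of 0.58 did not pass (limma adjusted p = 0.211). A second probe set lay at 5.53, 5.64 and 5.60 in LSK and at 6.37, 6.44 and 6.16 in LK. It was lower in LSK by a log2 difference of -0.74 (limma adjusted p = 0.0349 over all probe sets, where 1.18% were lower), which is opposite to the brightest one. No direction is given for the gene, and its mean over all 6 probe sets differed by -0.15.

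In the Peg10 domain all 4 genes had log2 differences above 0 (8487 of all 18193 genes did so), the smallest being 0.06 for Peg10. Of the 4 genes 2 passed as higher in LSK (against 3.84% of all genes), and only Ppp1r9a was detected. Ppp1r9a encodes neurabin-I, an actin-binding scaffold that targets protein phosphatase 1. Its brightest probe set had log2 intensities of 8.49, 9.01 and 8.98 in LSK and of 6.44, 6.26 and 5.90 in LK. Every array was above the background limit and the groups did not overlap. The means were 8.83 ± 0.29 and 6.20 ± 0.28 (SD, n = 3 each). The log2 difference was 2.63 (SE 0.21, 95% interval 2.12 to 3.13), which is 6.17-fold (limma adjusted p = 0.00239). Of its 5 probe sets 4 were higher with adjustment over all probe sets, and the fifth did not pass. The other 4 probe sets had log2 differences from 0.56 to 1.79, and the mean over all 5 gave 1.49. The call held in each fit without 1 array and not with the 3' to 5' covariate (log2 difference 2.78, limma adjusted p = 0.0754).

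Sgce, the epsilon-sarcoglycan of the cell membrane complex, was paternally expressed and close to the background. Its log2 intensities were 3.77, 3.43 and 3.29 in LSK and 2.75, 2.58 and 2.41 in LK. The groups did not overlap, but LSK replicate 2 was under the background limit of its array, so Sgce was not counted as detected. The log2 difference was 0.91 (SE 0.17, limma adjusted p = 0.0317). Among the fits without 1 array the call held only without LSK replicate 3 (limma adjusted p = 0.0362), and it was lost in the other 5 (up to 0.119), with a filter on dim genes (which left Sgce out), without both arrays numbered 2 (0.112), with the mean of both probe sets (0.051) and with the 3' to 5' covariate (0.496). Peg10, a retrotransposon-derived gene needed by the placenta and the adjacent neighbour of Sgce, lay between 2.64 and 2.87 on all arrays. Asb4, a substrate receptor of ubiquitin ligases, lay between 2.64 and 3.38 and was not past the threshold (log2 difference 0.42, limma adjusted p = 0.179).

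Impact, a paternally expressed gene outside these domains, encodes an inhibitor of the amino acid sensor kinase Gcn2. Its brightest probe set had log2 intensities of 10.08, 10.01 and 9.72 in LSK and of 7.39, 7.92 and 7.67 in LK. Both groups were well above background and did not overlap. The means were 9.93 ± 0.19 and 7.66 ± 0.26 (SD, n = 3 each), with a log2 difference of 2.27 (SE 0.18, 95% interval 1.84 to 2.71), or 4.83-fold (limma adjusted p = 0.00239). The size depended on the probe set. The probe set annotated to the RefSeq transcript had log2 intensities of 5.80, 5.75 and 5.80 in LSK and of 4.92, 5.05 and 5.01 in LK. It was also higher in LSK, by a log2 difference of 0.79 (limma adjusted p = 0.0197 over all probe sets), and the third was at background. The mean over all 3 was higher by 1.11. The call held in each fit without 1 array and not with the 3' to 5' covariate (log2 difference 2.24, limma adjusted p = 0.0963).

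**Figure D3:**
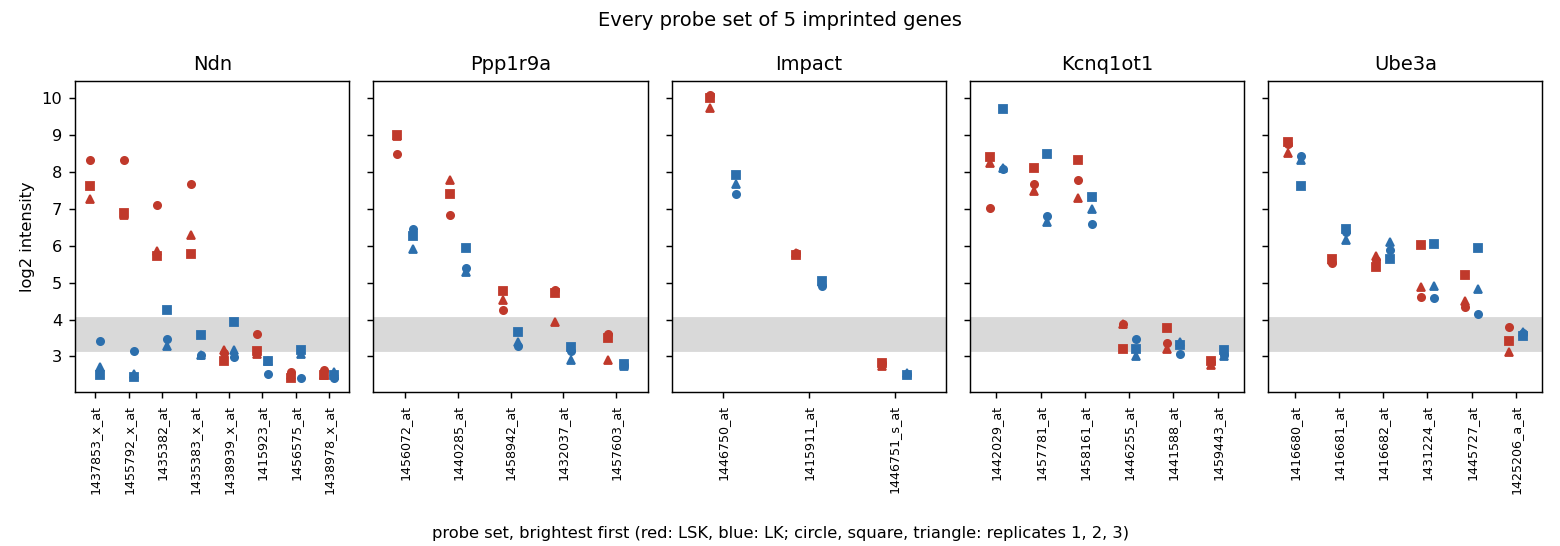
Log2 intensity of every probe set of Ndn, Ppp1r9a, Impact, Kcnq1ot1 and Ube3a, brightest first, with LSK in red and LK in blue. The grey band spans the background limit. In Ndn 4 probe sets lie far apart between the populations and the other 4 lie at or near background, while the bright probe sets of Kcnq1ot1 and Ube3a do not run the same way.

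The Kcnq1 domain showed its long antisense RNA well above background and its protein-coding genes at background. Kcnq1ot1, transcribed from the paternal copy within Kcnq1 and known to silence the neighbouring genes in cis, had log2 intensities of 7.03, 8.41 and 8.25 in LSK and of 8.09, 9.71 and 8.10 in LK. The groups overlapped, and the array numbered 2 was the highest in both populations. The log2 difference of -0.74 did not pass (95% interval -2.04 to 0.56, limma adjusted p = 0.503). The other 2 probe sets above background on all arrays lay on the opposite side, with log2 differences of 0.43 and 0.82, so the direction depends on the probe set. Kcnq1, a potassium channel gene, lay between 2.55 and 2.93. Phlda2, a brake on placental growth, lay between 2.96 and 3.56, and Ascl2, a transcription factor of the trophoblast, between 2.65 and 3.01.

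Cdkn1c encodes p57, an inhibitor of cyclin-dependent kinases that is known to be needed for quiescence of mouse stem cells. Its log2 intensities were 3.46, 3.17 and 3.32 in LSK and 2.90, 2.64 and 2.83 in LK. The groups did not overlap, but LSK replicate 2 and all LK arrays were under the background limit of their arrays. The log2 difference of 0.53 did not pass (SE 0.14, limma adjusted p = 0.0796, 0.0496 under the replicate block). Slc22a18, an organic ion transporter gene, had a similar picture, with means of 3.35 ± 0.04 and 2.91 ± 0.14 and a log2 difference of 0.44 (limma adjusted p = 0.103). For genes this near the background the measured difference is compressed.

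The Dlk1-Dio3 and H19-Igf2 domains, which hold growth regulators of the fetus, gave little signal. Dlk1, a membrane ligand related to the Notch ligands, lay between 2.18 and 2.96, and Mirg, a microRNA host transcript, between 2.86 and 3.10. Meg3 (Gtl2 in older annotation), a maternally expressed long non-coding RNA, had 11 probe sets. The one with the highest mean, whose suffix marks possible cross-hybridisation, had log2 intensities of 3.03, 4.63 and 4.29 in LSK and of 2.99, 3.01 and 2.87 in LK. LSK replicates 2 and 3 stood above the background limit and LSK replicate 1 lay beside the LK arrays. The log2 difference of 1.03 did not pass (limma adjusted p = 0.188), and passed without LSK replicate 1 (log2 difference 1.5, limma adjusted p = 0.0255). None of the other 10 probe sets exceeded the background limit on any array.

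Rian, another maternally expressed non-coding RNA of that domain, had log2 intensities of 3.65, 3.95 and 3.85 in LSK and of 3.32, 4.4 and 3.79 in LK. These lay around the background limit, and the groups overlapped. The log2 difference was -0.02 (95% interval -0.68 to 0.64), with the opposite sign without LK replicate 2 (0.26) or LSK replicate 1 (0.06). Igf2, the fetal growth factor, lay between 2.40 and 2.70. The single probe set of H19, a non-coding RNA that shares enhancers with Igf2, is also annotated to the microRNA gene Mir675 that lies in it, and was not counted. It lay between 2.73 and 3.08, under the background limit on all 6 arrays.

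In the Peg3 domain, Peg3, a zinc finger protein, lay between 2.48 and 2.91, Zim1 between 2.34 and 2.75 and the ubiquitin protease gene Usp29 between 2.93 and 3.43. All 3 of these genes were undetected in both populations.

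Gnas and Grb10 were among the brightest imprinted genes. Gnas encodes the stimulatory G protein alpha subunit, and had log2 intensities of 9.84, 9.45 and 10.34 in LSK and of 10.41, 10.14 and 10.37 in LK. The groups overlapped, and the log2 difference of -0.43 did not pass (95% interval -0.99 to 0.14, limma adjusted p = 0.361). Its other 4 probe sets lay at 2.25 to 3.47, so the value rests on 1 probe set, which several transcripts of the locus may share. Grb10, an adaptor that dampens insulin and IGF receptor signalling, had log2 intensities of 9.25, 9.40 and 9.03 in LSK and of 10.15, 9.41 and 9.47 in LK. All LSK arrays lay below all LK arrays, by a narrow margin, and the log2 difference of -0.45 did not pass (95% interval -1.0 to 0.10, limma adjusted p = 0.317). Its other 2 probe sets were at background.

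Igf2r, the receptor that removes Igf2 and sorts lysosomal enzymes, had means of 4.80 ± 0.22 in LSK and 4.70 ± 0.32 in LK (95% interval of the log2 difference -0.38 to 0.60). Mest, a hydrolase-like gene of mesoderm, had log2 intensities of 4.0, 4.19 and 5.11 in LSK and of 5.25, 4.67 and 4.84 in LK, and did not pass (95% interval of the log2 difference -1.24 to 0.27). Both genes were near the background limit and the groups overlapped.

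Plagl1 (Zac1), a zinc finger protein that regulates other imprinted genes, had log2 intensities of 3.25, 3.32 and 3.40 in LSK and of 3.30, 5.4 and 4.34 in LK. LK replicates 2 and 3 stood above LSK and LK replicate 1 lay among the LSK arrays. These values came from the brightest probe set of Plagl1, whose suffix marks possible cross-hybridisation. The log2 difference of -1.02 did not pass (limma adjusted p = 0.278), lay between -1.55 and -0.50 in the fits without 1 array and was -0.23 with the 3' to 5' covariate. The other 2 probe sets of the gene had log2 differences of 0.07 and -0.12. Nnat, a proteolipid of neural and endocrine cells, lay between 2.43 and 3.06, and Mcts2, a retrogene related to a translation factor, between 2.60 and 3.27.

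Dcn, the matrix proteoglycan decorin of connective tissue, lay between 2.96 and 3.74. It was read beside 10 markers of stroma and endothelium, since Dcn and several other members are strongly expressed in such cells. Of these markers 1, Pdgfrb, was detected, in both populations (4.83 ± 0.15 in LSK and 3.96 ± 0.44 in LK, limma adjusted p = 0.0804). The collagen gene Col1a1 and the endothelial cadherin gene Cdh5 lay between 2.53 and 2.93. The summed intensity of the 10 markers was 101 to 105 in LSK and 86.0 to 98.3 in LK, and its part in the results on Ndn, Ppp1r9a, Sgce and Impact was not tested. Rtl1, Dio3, Nespas and Zrsr1 had no probe set of their own in the annotation used and are not analysed here.

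A further 42 measured imprinted or reportedly imprinted genes gave 1 higher in LSK (2.38%, against 3.84% of all genes) and 1 lower (against 2.89%). The other 40 did not pass the threshold, and the median log2 difference was -0.00. Atp10a, a phospholipid flippase, had log2 intensities of 9.44, 9.51 and 9.07 in LSK and of 7.88, 8.23 and 8.03 in LK (2.45-fold, limma adjusted p = 0.0108). The groups did not overlap, and the call was lost without LSK replicate 1 (limma adjusted p = 0.0563) or LK replicate 3 (0.0571) and with the 3' to 5' covariate (0.262). Averaged over its probe sets the log2 difference of Atp10a was 0.61 in place of 1.29, and still passed. With the 3' to 5' covariate the log2 difference was 1.15. Gatm, the first enzyme of creatine synthesis, lay at 4.49, 4.02 and 4.58 in LSK and at 5.55, 5.74 and 6.59 in LK (3.03-fold lower in LSK, limma adjusted p = 0.0309). The groups did not overlap, and the call held among the fits without 1 array only without LSK replicate 3 (0.0491) or LK replicate 1 (0.0404) and was lost in the other 4 (up to 0.0945). The call of Gatm was also lost with the 3' to 5' covariate (log2 difference -1.44 in place of -1.60, limma adjusted p = 0.439). Ampd3, an AMP deaminase, did not pass in the main comparison (4.84 ± 0.59 in LSK and 6.60 ± 1.14 in LK, limma adjusted p = 0.133) and was lower in LSK with the replicate block (0.0486). Of the 42 genes 18 were detected in at least 1 population.

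Of 17 measured factors that set or keep imprints, 3 rose in LSK (17.6%, against 3.84% of all genes) and 14 did not pass. None was lower in LSK (against 2.89% of all genes), and the median log2 difference was -0.05. The 3 were Dnmt3b, a DNA methyltransferase that sets new methylation, at 8.90 ± 0.12 against 8.13 ± 0.21 (1.71-fold, limma adjusted p = 0.0356), and the related chromatin proteins Arid4a (1.97-fold, 0.0286) and Arid4b (1.73-fold, 0.0234), which act at the Prader-Willi control region in mice. Each was lost on leaving out single arrays, Dnmt3b in all 6 such fits (limma adjusted p up to 0.117), and Arid4a and Arid4b in all except that without LK replicate 2 (up to 0.112 and 0.0983). All 3 calls were lost with the 3' to 5' covariate (limma adjusted p from 0.278 to 0.451). The log2 differences there were 0.73 for Dnmt3b, 1.04 for Arid4a and 0.89 for Arid4b, against 0.77, 0.97 and 0.79 in the main comparison. Averaging its probe sets lowered the log2 difference of Arid4b from 0.79 to 0.30 (limma adjusted p = 0.182). Setdb1, a histone methyltransferase, did not pass in the main comparison (4.05 ± 0.30 in LSK and 4.81 ± 0.09 in LK, limma adjusted p = 0.0577) and was lower in LSK with the replicate block (0.0329). Dnmt1, the methyltransferase that copies methylation at replication, was at 11.58 ± 0.14 and 11.77 ± 0.28, its partner Uhrf1 at 10.45 ± 0.26 and 10.67 ± 0.05, and neither passed. Zfp57 lay between 2.54 and 2.93, and the related imprint factor Zfp445 was detected, at 5.86 ± 0.21 and 6.57 ± 0.81, and did not pass.

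In the IGF pathway 1 of 19 measured genes rose in LSK (5.26%, against 3.84% of all genes), 1 fell (against 2.89%) and 17 did not pass. Igf1r, the receptor through which Igf2 signals, was 2.00-fold higher (9.0 ± 0.22 against 8.01 ± 0.38, limma adjusted p = 0.0497), and was lost in each fit without 1 array (up to 0.156) and with the mean of its probe sets (0.577). M6pr, a mannose phosphate receptor that shares the lysosomal sorting task of Igf2r, was 1.65-fold lower in LSK (8.09 ± 0.08 against 8.82 ± 0.03, limma adjusted p = 0.0191), held without LSK replicate 3 (0.0335) or LK replicate 2 (0.0492) and was lost in the other 4 such fits (up to 0.0885). Both calls were lost with the 3' to 5' covariate (limma adjusted p = 0.641 and 0.371), and that of M6pr with the mean of its probe sets (0.0573).

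**Figure D4:**
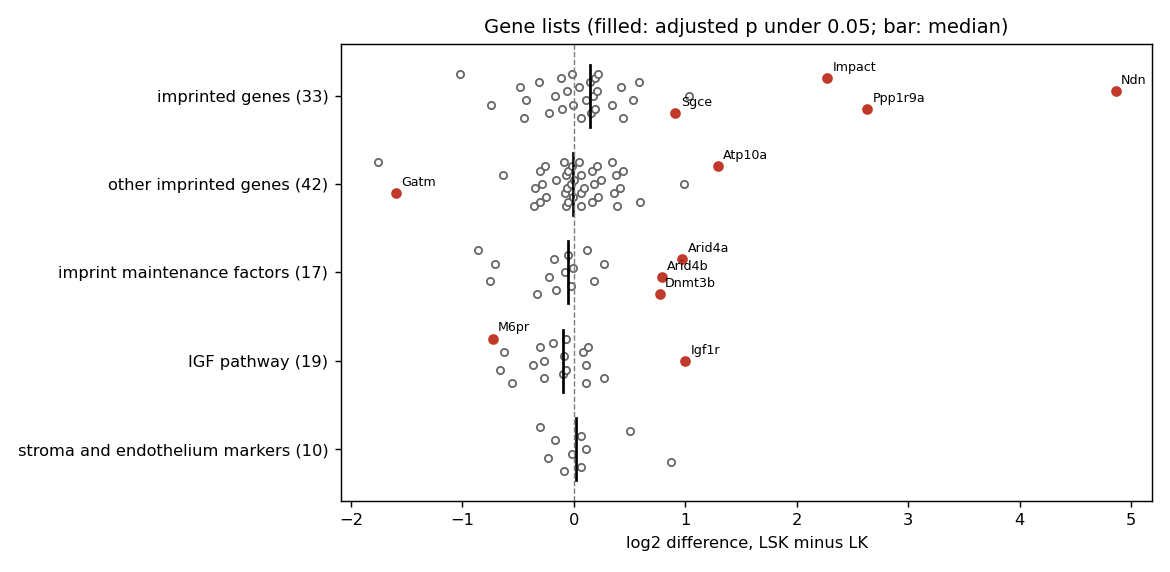
Log2 difference (LSK minus LK) of each gene in 5 lists, with filled points for an adjusted p under 0.05 and a bar at the median of each list. The medians of all 5 lists lie near 0, and Ndn, Ppp1r9a and Impact have larger differences than any gene shown of the other lists.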

How the data were processed

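The authors hybridised amplified, biotin-labelled RNA of 3 LSK and 3 LK samples to Affymetrix mouse arrays, per the labels' protocols. Each deposited value is the linear intensity of a probe set, and the submitters' processing notes name RMA, the affy package and R 2.11.0. RMA draws the arrays towards 1 distribution, so it can hide a shift common to every gene, and it compresses differences of dim ones. The deposited values still differed in distribution. Replicate 2 of each population had the smallest upper quartile of intensity, at 22 (LSK) and 20.7 (LK), while no remaining array fell below 24.2. Renewed quantile normalisation raised the genes past the limma threshold from 1225 to 1707. The imprinted genes higher in LSK stayed at 4. Detection calls and the scan files are not used here, and genome build and annotation are not given in the sources used here.

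Of 45101 probe sets, 64 controls were left out. Of the other 45037, 34945 were annotated to a single symbol, 932 to several and 9160 were unlisted. Symbols were updated by gene identifier through a RefSeq table of GRCm38.p6 (34741 matched). After taking log2, the probe set of highest mean stood for each of 18193 genes. Of the 33 imprinted genes measured, 21 had several probe sets and 12 had 1. Population was the single term of a limma fit (version 3.58.1, R 4.3.3, lmFit then eBayes). Its two-sided p-values were adjusted by Benjamini-Hochberg across the whole array and called at 0.05. The fit was tested on simulated data. Promoter windows came from RefSeq.

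The rule for named genes covers all 38 members, with every array's value for those past the threshold or detected with a log2 difference of at least 1. Array values of other genes above or near background, and of Cdkn1c and Meg3, were added after they were seen. The members and lists were chosen with earlier results of these data known. Alternatives were the replicate block, renewed quantile normalisation, averaged probe sets, a filter on dim genes (log2 of at least 4 on at least 3 arrays), trend and robust variances, the 3' to 5' covariate, other detection limits and leaving out arrays. Shared probe sets were an alternative added after seeing the data.

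Samples are numbered 1 to 3 in each population, and the labels leave the meaning of the number unsaid. Same-numbered samples deviated together (correlations across genes of 0.42, 0.43 and 0.27, against at most 0.04 between different numbers). Deviations within a population sum to 0, so this contrast is partly built in. On this basis, which comes from the data, samples of 1 number may be pairs, so the fit with the number as a block is given beside a result where it changes a call. The main comparison leaves the block out. Identical values were found in 0 of 15 array pairs. The number of arrays limits the precision.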

Additional observations from a re-analysis of the deposited data

How the results depend on the processing

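The number of imprinted genes higher in LSK was 4 in the main comparison and 3 to 5 under 13 of 14 alternatives, and 1 with the 3' to 5' covariate. It was 3 to 4 without each array in turn, and the number lower was 0 throughout (limma, with 9 of 33 genes at an unadjusted p under 0.05, or 27.3% against 22.4% of all genes, none of the 9 lower). Over the whole array, 1225 genes passed, 2617 with the replicate number as a block, 25 with the 3' to 5' covariate, 537 without both arrays numbered 2 and 306 to 1269 without 1 array. The block added Cdkn1c and changed no other call among the 33 genes. The number detected in LSK was 7 to 14 against 10, with 14 reached without LSK replicate 2. The number detected in LK was 11 in the main setting. It was 10 at a mean log2 of at least 4 and 9 with the mean of all probe sets. At a mean log2 of at least 5 it was 6, as with the 99th percentile of receptor genes.

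Of 231 alternative log2 differences of 17 imprinted genes, 209 kept direction and side of the threshold, 10 kept the direction and lost the threshold (8 of Sgce, 1 each of Ppp1r9a and Impact), 2 passed it (Cdkn1c and Meg3) and 10 changed sign, none of them of a gene past the threshold. With averaged probe sets the log2 difference was -0.15 for Ube3a, 0.15 for Kcnq1ot1 and 0.06 for Gnas, whose other probe sets differ. With the covariate it was 0.26 for Kcnq1ot1, 0.39 for Rian and -0.11 for Igf2r. It was 0.20 for Rian without both arrays numbered 2, and without 1 array it ranged from -0.28 to 0.26 for Rian and from -0.07 to 0.23 for Igf2r. The cause was not tested. Signal over background limits what can be said of the 21 undetected genes.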
